A study of Mus musculus with 30 samples.

Results

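The values described here are those of 10 target genes of the transcription factor p53, chosen by name as long-established targets: Cdkn1a, Ccng1, Btg2, Mdm2, Zmat3, Trp53inp1, Bbc3, Aen, Phlda3 and Eda2r. The 10 genes were chosen with earlier results of these data known. Shares of all genes given beside their counts are therefore no test of the set. All 10 were among the 20563 genes in the deposited table, and all 10 passed the filter on low values that left 15712 genes for testing. The study sequenced total RNA from mouse embryonic stem cells and from embryoid bodies, the aggregates that such cells form when they are left to differentiate. It concerns 2 loci, Lcor and Lcorl, which encode the Polycomb proteins Pali1 and Pali2, and it adds a mutant of Aebp2, another accessory protein of Polycomb repressive complex 2. Each of 5 lines was taken at day 0, as stem cells on gelatin with the cytokine LIF, and at day 4 and day 8, as embryoid bodies without LIF on non-adherent plates, with 2 libraries at each time and 30 in all. Pali1_sKO cells were Pali1-/-, Pali_dKO cells were Pali1-/-, Pali2-/-, and Pali_WT cells were their wild type. Aebp2_Gt cells were Aebp2gt/gt, a gene trap, and C129_WT cells were wild type and were taken as the reference of Aebp2_Gt from the order in which the design text names the lines.

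Several features limit these groups as models. The design text calls the libraries biological duplicates, and the labels do not say how many clones or cultures stand behind a line. Each p-value thus rests on the spread between duplicate libraries, pooled over the 15 groups, and not on the spread between separate lines of a genotype. The same Pali_WT libraries serve as the reference of both Pali mutants. The 2 wild types are separate lines, so anything that differs between them cannot be told apart from their origin. An embryoid body holds many cell types, and in such bulk samples fewer cells of a type and less RNA per cell cannot be told apart.

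The p53 protein, encoded in the mouse by Trp53, binds DNA as a tetramer at a response element built from a pair of ten-letter units and activates the genes nearby after DNA damage and other stress. Its targets include inhibitors of cell division, inducers of cell death and proteins that act back on p53 itself. Mouse embryonic stem cells contain much p53 protein, and p53 is also known to act on genes of pluripotency and differentiation in them. Among the genes described here, Cdkn1a encodes the cyclin-dependent kinase inhibitor p21, Ccng1 encodes cyclin G1, and Btg2 encodes an antiproliferative cofactor of the CCR4-NOT deadenylase. Mdm2 encodes the ubiquitin ligase that targets p53 for degradation, Zmat3 an RNA-binding zinc finger protein, and Trp53inp1 a nuclear protein that takes part in p53 phosphorylation and in autophagy. Bbc3 encodes PUMA, a BH3-only inducer of apoptosis, Aen an apoptosis-enhancing nuclease, Phlda3 a pleckstrin-homology protein that inhibits Akt, and Eda2r a receptor of the tumour necrosis factor receptor superfamily that binds an isoform of ectodysplasin.

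Across the whole series, the deposited normalised counts summed to between 15470082 and 18336791 per library, and the steps between low values put the depth at an estimated 13198293 to 28151934 reads. Duplicates correlated at 0.948 to 0.961 on the log2 scale across genes. Aebp2 lay between 17.1 and 66.4 in the 6 gene trap libraries, against 1232 to 2784 in the other 24. Lcor and Lcorl did not pass the test in either Pali mutant, and a value per gene does not separate the transcripts of these loci, so it does not check those labels. The stem cell factor Pou5f1 ran from 19672 to 23514 at day 0 and from 2525 to 11979 at day 8. Fgf5, a marker of the cells that leave that state, ran from 4.52 to 60.0 at day 0 and from 1635 to 3140 at day 4. The free-text descriptions of 2 Pali_dKO libraries, day 0 replicate 1 and day 4 replicate 1, give a culture state at odds with the title. The titles were followed, and Fgf5 was 58.6 in the first and 2267 in the second.

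Letters like those of the p53 response element occur in the promoters of some of these genes, and the stretches below are shown because they hold such matches. Whether p53 binds them was not measured. RefSeq promoter windows of 300 bases, 250 before and 50 after a start of transcription on GRCm38.p6, were found for 8 of the 10 genes, and Zmat3 and Trp53inp1 had none. Each window was searched on both strands for the p53 decamer with its CWWG core, in which W is A or T. A match was 1 exact copy or a pair at most 13 bases apart. A pair kept both cores and had no more than 3 mismatches over 20 letters. In the sequences, capitals mark the pair with the fewest mismatches or, without a pair, the exact decamer. Each line reads 5′ to 3′ on the strand of the gene.
Cdkn1a, chr17:29090881-29090962, plus strand: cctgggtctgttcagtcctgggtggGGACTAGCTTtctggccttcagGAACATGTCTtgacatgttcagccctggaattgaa
Bbc3, chr7:16309461-16309530, plus strand: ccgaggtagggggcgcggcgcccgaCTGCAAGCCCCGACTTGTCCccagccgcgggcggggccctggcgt
Aen, chr7:78895937-78895956, plus strand: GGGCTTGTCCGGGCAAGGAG
Ccng1, chr11:40755437-40755496, minus strand: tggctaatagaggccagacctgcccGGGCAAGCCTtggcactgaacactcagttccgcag
Mdm2, chr10:117710910-117710969, minus strand: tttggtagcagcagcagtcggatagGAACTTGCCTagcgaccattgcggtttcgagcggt
The first Cdkn1a window held 2 pairs, and the pair with fewer mismatches is marked. The marked pair, with no mismatch and a spacer of 12 bases, lay 73 to 42 bases before the start of this window's transcript. The other pair is the second marked decamer with the 10 bases right after it, with no spacer and 1 mismatch. The second Cdkn1a window, at another start, had no match. The pair of Bbc3, with 3 mismatches and no spacer, lay 97 to 78 bases before the start of its first window. It lay within an annotated intron of a longer Bbc3 transcript. The other Bbc3 windows had no match. The pair of Aen, also with 3 mismatches, lay 10 to 29 bases after one start and 121 to 102 bases before another, in an exon. Ccng1 and Mdm2 each had 1 exact decamer, 185 to 176 and 186 to 177 bases before the start. The windows of Btg2, Phlda3 and Eda2r had no match, which says only that these letters are not in these windows. The 8 genes have 12 windows in all. A pair was found in 4 of the 12 (33.3%), against 2207 of all 32851 windows (6.72%), and an exact decamer in 5 of the 12 (41.7%), against 2745 of all windows (8.36%). Windows of 1 gene can overlap, so 1 match can count more than once, and a match is a description of letters, not a measured site.

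**Figure D1:**
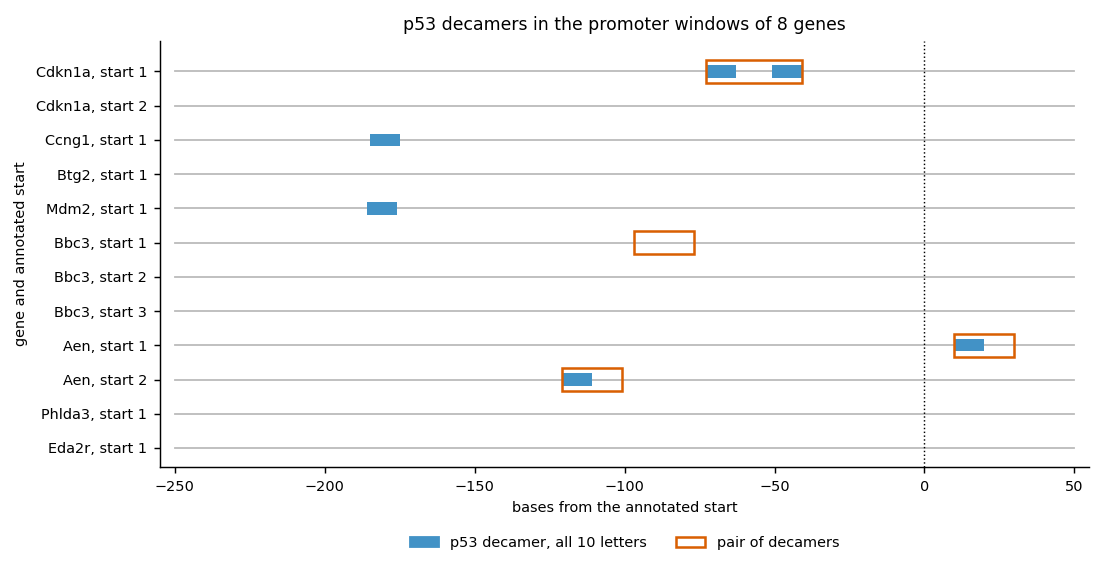
Position of p53 decamers in the promoter windows of the 8 genes that have one, 1 row per window, with the distance from the start of transcription in bases on the x axis. Bars mark exact decamers and pairs of decamers. The Cdkn1a pair with no mismatch spans -73 to -42, and the rows of Btg2, Phlda3 and Eda2r are empty.

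The genes differ in how far they moved over the 15 groups of line and day. With 4 added to each mean, as on the scale of the test, the highest group mean exceeded the lowest by a factor of 10.8 for Btg2, 9.68 for Cdkn1a, 5.81 for Zmat3, 5.06 for Phlda3, 4.84 for Bbc3, 3.86 for Ccng1, 2.75 for Trp53inp1, 2.67 for Eda2r, 1.85 for Mdm2 and 1.79 for Aen. C129_WT at day 8 was the highest group for 7 of the 10 genes, and Pali_WT at day 0 was the lowest for Ccng1, Btg2, Trp53inp1, Phlda3 and Eda2r. The values are normalised counts that are not divided by transcript length, so levels are compared between libraries and not between genes.

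**Figure D2:**
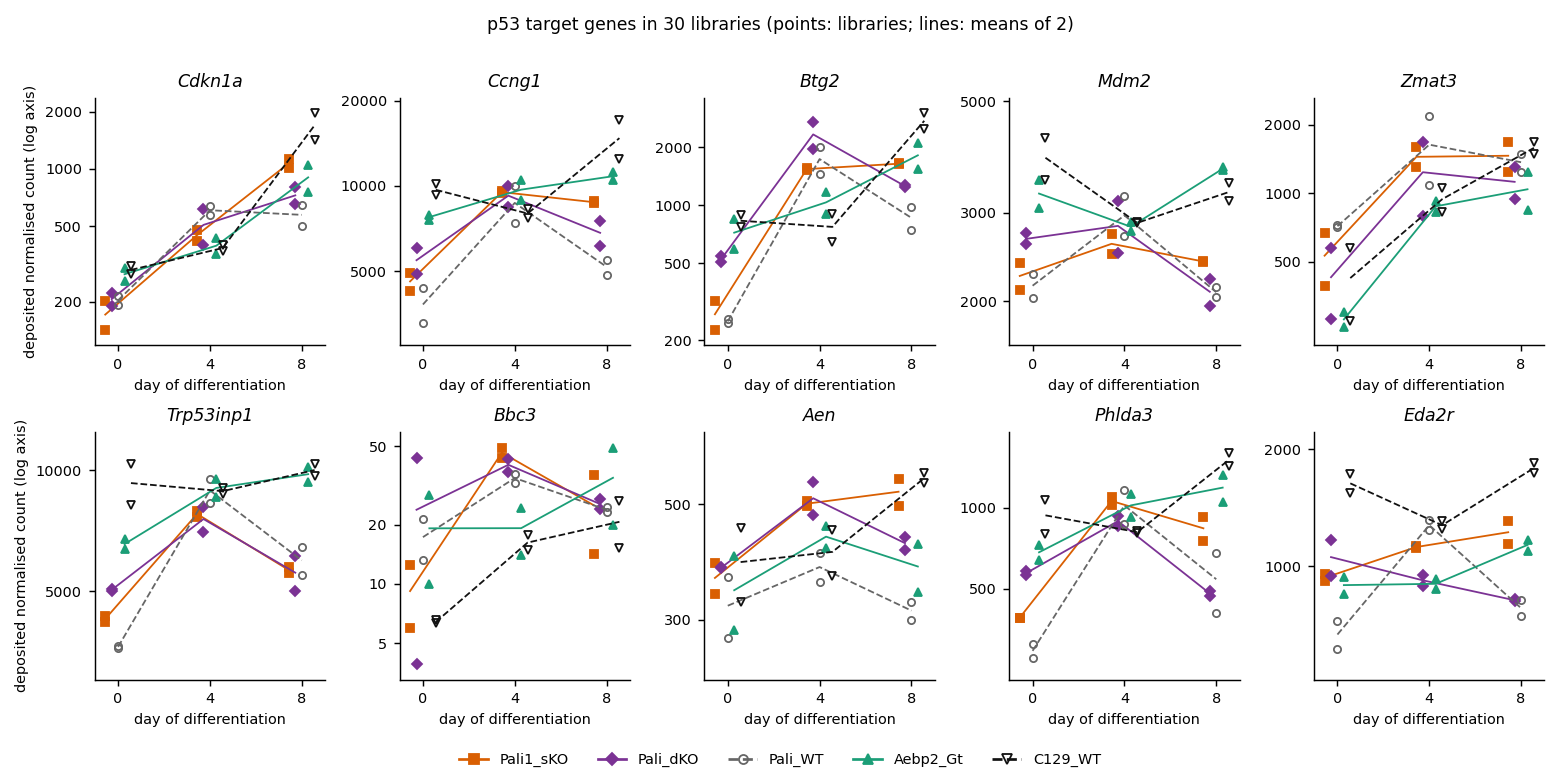
Deposited normalised count of each of the 10 genes (y axes, log scale) against the day of differentiation (x axis), with 1 point per library, colour and symbol for the line, and lines through the means of 2 libraries. Cdkn1a and Btg2 were higher at day 8 than at day 0 in all 5 lines, and the C129_WT points at day 8 are the highest for Cdkn1a, at 1423 and 1970.

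Most of these genes changed during differentiation, and the lines did not follow one course. The test is limma's moderated test on log2(value + 4) with p-values adjusted over all 15712 genes, and a gene is said to rise or fall where the adjusted p is under 0.05. This scale understates the change of low genes. From day 0 to day 4, 7 of the 10 genes rose in Pali1_sKO, where 15.2% of all genes tested rose, 6 rose in Pali_dKO (background 13.6%) and 7 rose in Pali_WT (background 14.7%). Over the same days 3 rose in Aebp2_Gt (background 15.7%), and in C129_WT 1 rose and 2 fell (backgrounds 14% and 15%). In Aebp2_Gt the call of Zmat3 alone was kept in every fit that left out 1 library. The median log2 change of the 10 genes was 1.22 in Pali1_sKO, 0.70 in Pali_dKO, 1.14 in Pali_WT, 0.41 in Aebp2_Gt and -0.089 in C129_WT, beside medians over all genes tested between -0.012 and 0.021. Of the 3 C129_WT calls 2 were left without day 0 replicate 1, 1 without day 4 replicate 1 or without day 0 replicate 2, and none without day 4 replicate 2.

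From day 4 to day 8 the calls differed between the lines. The differences between these changes were tested with limma in contrasts chosen after the data were seen. Between C129_WT and Pali_WT the change differed for 8 of the 10 genes (background 8.36% higher). Against its wild type, it differed for 1 gene in Pali1_sKO (background 0.726% higher), 1 in Aebp2_Gt (background 6.55% lower) and none in Pali_dKO. In Pali_WT 6 of the 10 genes fell and none rose, where 0.853% of all genes fell and 1.95% rose. In Pali_dKO 4 fell and none rose (background 2.62% lower), while in Pali1_sKO 1 rose and 1 fell (backgrounds 8.7% and 5.78%). In C129_WT 5 rose and none fell (background 16.2% higher), and in Aebp2_Gt 2 rose and none fell (background 4.68%). The fall in Pali_WT rests on single libraries for most genes: without day 8 replicate 1 or without day 4 replicate 2, 1 of the 6 calls was left, that of Eda2r. In Pali_dKO none of the 4 calls was left without day 4 replicate 2, while all 4 were left without day 4 replicate 1, the library with a conflicting description. In Aebp2_Gt neither call was left without day 8 replicate 2 or without day 4 replicate 2, and 1 was left without day 8 replicate 1. In Pali1_sKO the call of Cdkn1a alone was left without day 8 replicate 1, day 8 replicate 2 or day 4 replicate 1. In each such fit the lone library left in a group is assumed to vary like the other groups.

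Between day 0 and day 8 as a whole, 8 genes rose in Pali1_sKO (background 22%), 4 in Pali_WT (background 14%), 7 in Aebp2_Gt (background 16.3%) and 6 in C129_WT (background 23.4%). Pali_dKO had 3 that rose and 2 that fell (backgrounds 16.7% and 14.2%). The number of these calls left was 5 of 8 in Pali1_sKO without day 8 replicate 2, 4 of 7 in Aebp2_Gt without day 8 replicate 2 or without day 0 replicate 2, and 3 of 6 in C129_WT without day 8 replicate 2 or without day 0 replicate 2. In Pali_dKO 3 of 5 were left without any 1 of its 4 libraries. Without the other library with a conflicting description, Pali_dKO day 0 replicate 1, the rises of Cdkn1a and Btg2 over both intervals from day 0 were kept in this line. The rises of Cdkn1a and Btg2 from day 0 to day 8 were called in all 5 lines, and they held in every processing alternative and in every fit that left out 1 library.

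Cdkn1a, the gene of p21 (ENSMUSG00000023067, chr17:29090976-29100727, plus strand), ran from low in stem cells to high in day 8 embryoid bodies. In Pali1_sKO, Cdkn1a was 201 and 142 at day 0, 419 and 479 at day 4 and 1133 and 1011 at day 8. In Pali_dKO, Cdkn1a was 189.7 and 224 at day 0, 397 and 619.6 at day 4 and 799 and 654 at day 8. In Pali_WT, Cdkn1a was 193 and 215 at day 0, 572 and 642 at day 4 and 647 and 501 at day 8. The day 0 libraries of the 3 Pali lines overlap, and day 8 lies above day 0 in each of them. Day 8 also lies above day 4 in Pali1_sKO and Pali_dKO, and overlaps it in Pali_WT. In Aebp2_Gt, Cdkn1a was 301 and 258 at day 0, 435 and 355 at day 4 and 758 and 1049 at day 8. In C129_WT, Cdkn1a was 308 and 281 at day 0, 371 and 398 at day 4 and 1423 and 1969.8 at day 8. The 2 C129_WT libraries at day 8 lie above all other 28 libraries. The log2 change of Cdkn1a from day 0 to day 8 was 2.63 in Pali1_sKO (adjusted p = 9.22e-08), 1.79 in Pali_dKO (adjusted p = 1.44e-05), 1.47 in Pali_WT (adjusted p = 0.000128), 1.66 in Aebp2_Gt (adjusted p = 2.52e-05) and 2.49 in C129_WT (adjusted p = 9.25e-08). Between day 4 and day 8 Cdkn1a rose in Pali1_sKO (log2 fold change 1.25, SE 0.23, adjusted p = 0.00117) and C129_WT (log2 fold change 2.11, SE 0.23, adjusted p = 3.24e-06). The difference of this change from that in Pali_WT did not pass limma's test for Pali1_sKO (1.34, adjusted p = 0.0534). For C129_WT it was 2.20 (adjusted p = 0.000177), and both contrasts were chosen after the data were seen. In Pali_WT the change over those days was -0.089 (95% interval -0.57 to 0.39). Its rise over these days in Aebp2_Gt (log2 fold change 1.17, SE 0.23, adjusted p = 0.00385) was lost without Aebp2_Gt day 8 replicate 2 or Aebp2_Gt day 4 replicate 2 (highest adjusted p = 0.0591). Cdkn1a overlaps an annotated transcript on the other strand, and the sources used here do not say whether the authors' counting used strand.

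Btg2, the antiproliferative cofactor (ENSMUSG00000020423, chr1:134075170-134079120, minus strand), showed the widest range. In Pali1_sKO, Btg2 was 226 and 319.7 at day 0, 1516 and 1559.5 at day 4 and 1651 and 1628 at day 8. In Pali_dKO, Btg2 was 509 and 546 at day 0, 1954 and 2694 at day 4 and 1277 and 1235 at day 8. In Pali_WT, Btg2 was 256 and 245 at day 0, 1456 and 2009 at day 4 and 747 and 973 at day 8. Every day 4 library of the Pali lines lies above every day 0 library of them. The rise was 2.50 on the log2 scale in Pali1_sKO (adjusted p = 5.16e-07), 2.11 in Pali_dKO (adjusted p = 4.99e-06) and 2.75 in Pali_WT (adjusted p = 1.81e-07). In Aebp2_Gt, Btg2 was 849 and 592 at day 0, 1172 and 897 at day 4 and 1534 and 2089 at day 8. In C129_WT, Btg2 was 895 and 767 at day 0, 643 and 902 at day 4 and 2474 and 2991 at day 8. In C129_WT the day 4 and day 0 libraries overlap, with a log2 change of -0.12 (95% interval -0.61 to 0.37), and the rise came between day 4 and day 8 (log2 fold change 1.83, SE 0.23, adjusted p = 1.75e-05). Over those later days Btg2 fell in Pali_WT, to 860.0 ± 160.4 at day 8, against 1732 ± 391 at day 4 (SE of the log2 fold change 0.23, adjusted p = 0.0262), a call that ended without Pali_WT day 8 replicate 1 or Pali_WT day 4 replicate 2 (highest adjusted p = 0.319).

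Ccng1, the gene of cyclin G1 (ENSMUSG00000020326, chr11:40748552-40755311, minus strand), moved with Btg2 but over a narrower range. In Pali1_sKO, Ccng1 was 4275 and 4933 at day 0, 9412 and 9605 at day 4 and 8702 and 8827 at day 8. In Pali_dKO, Ccng1 was 4906 and 6033 at day 0, 8452 and 10029 at day 4 and 7533 and 6133 at day 8. In Pali_WT, Ccng1 was 3285 and 4351 at day 0, 7409 and 10013 at day 4 and 4866 and 5499 at day 8. Day 4 lies above day 0 in each of these lines, and the rise in Pali_WT was 1.19 on the log2 scale (adjusted p = 5.06e-05). In Aebp2_Gt, Ccng1 was 7920.2 and 7608 at day 0, 10476 and 8929 at day 4 and 11185 and 10457 at day 8. In C129_WT, Ccng1 was 10118 and 9264 at day 0, 7707 and 8280.3 at day 4 and 12457 and 17031 at day 8. In C129_WT day 4 lies below both other days, and Ccng1 rose from day 4 to day 8 (log2 fold change 0.87, SE 0.17, adjusted p = 0.000851). In Pali_WT Ccng1 fell over these days (log2 fold change -0.74, SE 0.17, adjusted p = 0.0248), a call that ended without Pali_WT day 8 replicate 1 or Pali_WT day 4 replicate 2 (highest adjusted p = 0.272).

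Of the genes that act back on p53, Mdm2 (ENSMUSG00000020184, chr10:117688875-117710758, minus strand) varied least. In Pali1_sKO, Mdm2 was 2106 and 2383 at day 0, 2485 and 2716 at day 4 and 2406 and 2390.1 at day 8. In Pali_dKO, Mdm2 was 2593 and 2728 at day 0, 2489 and 3159 at day 4 and 2216 and 1958 at day 8. In Pali_WT, Mdm2 was 2031 and 2261 at day 0, 2693 and 3234 at day 4 and 2037 and 2129 at day 8. Both day 4 libraries of Pali_WT lie above its day 0 and day 8 libraries, which overlap each other. Both day 8 libraries of Pali_dKO lie below its day 0 and day 4 libraries, which overlap each other. In Pali1_sKO the 3 days do not overlap, but no change between them passed the test. The largest log2 change called in the Pali lines, -0.50 from day 4 to day 8 in Pali_WT (adjusted p = 0.0274), ended without Pali_WT day 8 replicate 1, Pali_WT day 8 replicate 2 or Pali_WT day 4 replicate 2 (highest adjusted p = 0.259). In Aebp2_Gt, Mdm2 was 3491 and 3059 at day 0, 2756 and 2869 at day 4 and 3644 and 3696 at day 8. In C129_WT, Mdm2 was 4234 and 3488 at day 0, 2859 and 2868 at day 4 and 3434 and 3166 at day 8. Here day 4 was the lowest day, and the fall from day 0 to day 4 in C129_WT (log2 fold change -0.42, SE 0.12, adjusted p = 0.0111) was lost without C129_WT day 4 replicate 1, C129_WT day 4 replicate 2 or C129_WT day 0 replicate 1 (highest adjusted p = 0.168).

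Trp53inp1 (ENSMUSG00000028211, chr4:11156431-11174379, plus strand) rose on leaving the stem cell state in 4 of the 5 lines. In Pali1_sKO, Trp53inp1 was 4346 and 4183 at day 0, 7926 and 7631 at day 4 and 5533 and 5749.7 at day 8. In Pali_dKO, Trp53inp1 was 5000.0 and 5073 at day 0, 7004 and 8108 at day 4 and 6113 and 5002 at day 8. In Pali_WT, Trp53inp1 was 3617 and 3652 at day 0, 8284 and 9519 at day 4 and 5496 and 6431 at day 8. The rise from day 0 to day 4 was 0.87 on the log2 scale in Pali1_sKO (adjusted p = 1.42e-05), 0.58 in Pali_dKO (adjusted p = 0.000859) and 1.29 in Pali_WT (adjusted p = 2.51e-07). Day 8 lay between day 0 and day 4 in every one of these lines by group mean. In Aebp2_Gt, Trp53inp1 was 6738 and 6356 at day 0, 9491 and 8566 at day 4 and 10196 and 9338 at day 8. The call of its rise from day 0 to day 4 in Aebp2_Gt was lost without Aebp2_Gt day 4 replicate 1. In C129_WT, Trp53inp1 was 10359 and 8205 at day 0, 8715 and 9010.4 at day 4 and 10360.2 and 9639 at day 8. In C129_WT the day 0 libraries overlap those of day 4 and those of day 8, with a log2 change from day 0 to day 4 of -0.057 (95% interval -0.29 to 0.18).

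Zmat3 (ENSMUSG00000027663, chr3:32334792-32366014, minus strand) ran from 257 to 2192 over the 30 libraries and was noisier, with duplicates more than a factor of 2 apart in 4 of the 15 groups. It rose from day 0 to day 8 in Pali1_sKO (log2 fold change 1.49, adjusted p = 0.00884), Pali_dKO (1.46, adjusted p = 0.014), Aebp2_Gt (1.87, adjusted p = 0.00255) and C129_WT (1.99, adjusted p = 0.000874). In Pali_WT, where Zmat3 was 711 and 722 at day 0, 2192 and 1083 at day 4 and 1246 and 1496 at day 8, the change was 0.93 with an adjusted p of 0.124. The 4 rises were not equally firm: those in Aebp2_Gt and C129_WT held when any 1 library was left out, while that in Pali1_sKO ended without Pali1_sKO day 8 replicate 2 or Pali1_sKO day 0 replicate 1 (highest adjusted p = 0.107) and that in Pali_dKO without Pali_dKO day 8 replicate 1 or Pali_dKO day 0 replicate 1 (highest adjusted p = 0.196).

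Among the genes of cell death and its receptors, Phlda3, the Akt inhibitor (ENSMUSG00000041801, chr1:135766119-135769136, plus strand), followed Ccng1 most closely. In Pali1_sKO, Phlda3 was 391 and 390.4 at day 0, 1091 and 1024 at day 4 and 924 and 751 at day 8. In Pali_dKO, Phlda3 was 580.2 and 562 at day 0, 854 and 927 at day 4 and 469 and 491 at day 8. In Pali_WT, Phlda3 was 276 and 312 at day 0, 871 and 1165 at day 4 and 405 and 679 at day 8. Its rise from day 0 to day 4 was 1.43 on the log2 scale in Pali1_sKO (adjusted p = 3.16e-05) and 1.76 in Pali_WT (adjusted p = 4.52e-06). The smaller rise in Pali_dKO (0.64, adjusted p = 0.0244) was lost when any 1 of its 4 libraries was left out, with a highest adjusted p of 0.127. In Aebp2_Gt, Phlda3 was 728 and 636 at day 0, 919 and 1118 at day 4 and 1047 and 1324 at day 8. In C129_WT, Phlda3 was 1071 and 801 at day 0, 805 and 816 at day 4 and 1420.5 and 1588 at day 8. Both C129_WT libraries at day 8 lie above all other libraries.

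Eda2r, the ectodysplasin receptor (ENSMUSG00000034457, chrX:97333840-97377216, minus strand), was called in 7 of the 9 comparisons of a mutant with its wild type, more than any other of the 10 genes. In Pali1_sKO, Eda2r was 954 and 915 at day 0, 1127 and 1114 at day 4 and 1309 and 1137 at day 8. In Pali_dKO, Eda2r was 946 and 1166 at day 0, 949 and 891 at day 4 and 822 and 814 at day 8. In Pali_WT, Eda2r was 614 and 722 at day 0, 1239 and 1311 at day 4 and 744 and 817 at day 8. Pali_WT peaked at day 4, with a rise of 0.93 on the log2 scale from day 0 (adjusted p = 4.12e-06) and a fall to day 8 (log2 fold change -0.71, SE 0.11, adjusted p = 0.00177), both of which held when any 1 library was left out. In Aebp2_Gt, Eda2r was 941 and 848 at day 0, 874 and 929 at day 4 and 1098 and 1172 at day 8. In C129_WT, Eda2r was 1539 and 1727 at day 0, 1304 and 1246 at day 4 and 1732 and 1844 at day 8. C129_WT had its lowest value at day 4, and the rise to day 8 (log2 fold change 0.49, SE 0.11, adjusted p = 0.00176) held without any 1 library.

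Bbc3, the gene of PUMA (ENSMUSG00000002083, chr7:16308393-16318205, plus strand), lay near the filter, between 3.92 and 49.1, with duplicates more than a factor of 2 apart in 4 groups even when 4 is added to each value. Its 1 call over time was a rise from day 0 to day 4 in Pali1_sKO, with 43.6 and 49.1 at day 4, against 12.4 and 5.98 at day 0 (log2 fold change 1.97, SE 0.63, adjusted p = 0.0233), and it ended without Pali1_sKO day 4 replicate 1, Pali1_sKO day 4 replicate 2 or Pali1_sKO day 0 replicate 2 (highest adjusted p = 0.158). No change of Bbc3 over time passed the test in the other lines, which does not show that it was steady there. Aen, the nuclease gene (ENSMUSG00000030609, chr7:78895854-78911209, plus strand), stayed between 276 and 574, and it rose from day 0 to day 8 in Pali1_sKO (498 and 560.4 at day 8 and 386 and 337 at day 0; log2 fold change 0.55, SE 0.18, adjusted p = 0.02) and in C129_WT (549 and 574 at day 8 and 451 and 324 at day 0; log2 fold change 0.55, SE 0.18, adjusted p = 0.0176). Neither Aen call held throughout: the first ended without Pali1_sKO day 8 replicate 2 or Pali1_sKO day 0 replicate 2 (highest adjusted p = 0.135), the second without C129_WT day 8 replicate 2 or C129_WT day 0 replicate 2 (highest adjusted p = 0.242).

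Most of these p53 target transcripts were higher at day 8 in Pali1_sKO, the line that lacks Pali1 alone. At day 8, 6 of the 10 genes rose in Pali1_sKO against Pali_WT and none fell, where 7.07% of all genes tested rose, and the median log2 fold change was 0.65 for the 10 genes and 0.036 for all genes. Cdkn1a averaged 1072 ± 86.0 in Pali1_sKO and 574 ± 104 in Pali_WT (SD, n = 2 each; log2 fold change 0.91, SE 0.23, adjusted p = 0.0118), a ratio of 1.87 on the scale of the test. Btg2 averaged 1639 ± 16.3 in Pali1_sKO and 860.0 ± 160.4 in Pali_WT (log2 fold change 0.94, SE 0.23, adjusted p = 0.0117). Ccng1 averaged 8764 ± 88.0 in Pali1_sKO and 5183 ± 448 in Pali_WT (log2 fold change 0.76, SE 0.17, adjusted p = 0.0059). All 3 arrest genes thus rose, with no overlap between the groups. Aen was 498 and 560.4 in Pali1_sKO and 299.8 and 325 in Pali_WT (log2 fold change 0.75, SE 0.18, adjusted p = 0.00898), Phlda3 rose by 0.66 on the log2 scale (adjusted p = 0.0351) and Eda2r by 0.64 (adjusted p = 0.000594). The feedback genes did not pass: the log2 fold change was 0.20 for Mdm2 (95% interval -0.046 to 0.45), -0.076 for Trp53inp1 (-0.31 to 0.16) and 0.083 for Zmat3 (-0.81 to 0.98), and for Bbc3 it was -0.042. Of the 6 calls, Eda2r alone held when any 1 of the 4 libraries was left out (highest adjusted p = 0.0121). Without Pali1_sKO replicate 1, Ccng1, Aen and Eda2r were left; without Pali1_sKO replicate 2, Cdkn1a, Ccng1 and Eda2r; without Pali_WT replicate 1, Cdkn1a and Eda2r; and without Pali_WT replicate 2, all but Cdkn1a.

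Markers of cell state also differed at day 8. In Pali1_sKO, 9 of 14 pluripotency markers fell and none rose, with a summed level of 32773 to 38636 in Pali1_sKO and 66340 to 79449 in Pali_WT. Germ layer markers rose for 5 of 13 genes and fell for 1, with sums of 14267 to 14279 in Pali1_sKO and 6811 to 8408 in Pali_WT. Of 16 markers of extraembryonic endoderm 3 rose and 1 fell, with sums of 11428 to 11485 in Pali1_sKO, against 5635 and 22181 in the 2 Pali_WT libraries. Of 17 fibroblast and mesenchyme markers 2 rose, with sums of 24743 to 27972 in Pali1_sKO and 21726 to 31883 in Pali_WT. Of 14 trophoblast markers 2 fell, with sums of 7684 to 9232 in Pali1_sKO and 6756 to 8896 in Pali_WT. The defining trophoblast gene Elf5, which did not pass the filter on low values over all libraries, was listed at 0 in both Pali1_sKO libraries. The part of these markers in the p53 target result was not tested. Before day 8 Pali1_sKO differed little from Pali_WT in these genes: at day 0 only Eda2r rose (log2 fold change 0.49, SE 0.11, adjusted p = 0.012; background 3.04%), a call lost without Pali1_sKO day 0 replicate 1 or Pali_WT day 0 replicate 1 (highest adjusted p = 0.132). At day 4 limma called none of the 10 genes, with 1 at an unadjusted p under 0.05 and a median log2 fold change of -0.13 (background 2.67% in either direction). The effect of the mutation on Cdkn1a was larger at day 8 than at day 0, by 1.17 on the log2 scale (adjusted p = 0.0394; background 2.7% higher). This difference was lost in 6 of 8 fits that left out 1 library, with a highest adjusted p of 0.15. The effect on Eda2r grew by 0.83 from day 4 to day 8 (adjusted p = 0.0172; background 0.726% higher), in a contrast chosen after the data were seen, and this was lost without Pali1_sKO day 4 replicate 2 or Pali_WT day 4 replicate 2 (highest adjusted p = 0.0583).

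**Figure D3:**
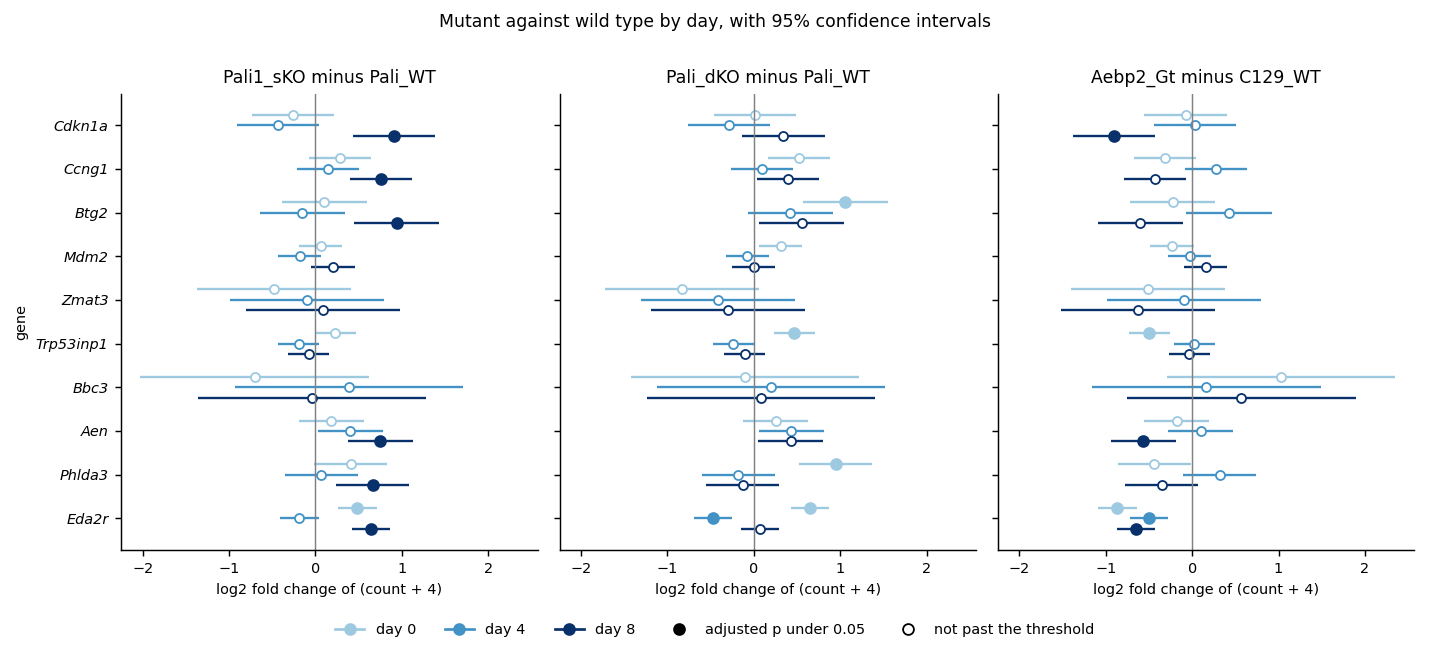
Log2 fold change of each gene in the 3 mutant lines against their wild type (x axis) by day, with 95% intervals from limma and filled points where the adjusted p is under 0.05. At day 8 the Pali1_sKO points of Cdkn1a, Ccng1, Btg2, Aen, Phlda3 and Eda2r lie to the right of 0, and the Aebp2_Gt points of Cdkn1a, Aen and Eda2r to the left.

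In Pali_dKO, the line that lacks Pali2 as well, genes of this group were called higher in stem cells. At day 0, 4 genes rose against Pali_WT and none fell (background 2.95%), with a median of 0.39 for the 10 genes and 0.013 for all genes. Btg2 averaged 527 ± 25.7 in Pali_dKO and 251 ± 8.35 in Pali_WT (log2 fold change 1.06, SE 0.23, adjusted p = 0.0146). Phlda3 averaged 571 ± 12.9 in Pali_dKO and 294 ± 25.3 in Pali_WT (log2 fold change 0.95, SE 0.20, adjusted p = 0.0112). Trp53inp1 rose by 0.47 on the log2 scale (adjusted p = 0.0247) and Eda2r by 0.65 (adjusted p = 0.00136), while Cdkn1a gave 0.018 (95% interval -0.46 to 0.49) and Ccng1 0.52 (adjusted p = 0.114). Eda2r was the only call left without Pali_dKO replicate 1, the library with the conflicting description, and likewise without Pali_dKO replicate 2 or Pali_WT replicate 1; without Pali_WT replicate 2, Phlda3 and Eda2r were left. Of 14 pluripotency markers 2 fell in these Pali_dKO stem cells, with sums of 95309 to 101615 in Pali_dKO and 134748 to 136059 in Pali_WT. Of 17 fibroblast and mesenchyme markers 6 rose, with sums of 20033 to 21893 in Pali_dKO and 23192 to 23905 in Pali_WT. Of 14 trophoblast markers 4 rose, with sums of 3762 to 6549 in Pali_dKO and 3273 to 3837 in Pali_WT. Gata3, a defining trophoblast gene, was listed at 0 in all 4 libraries. Of 13 germ layer markers 3 rose, with sums of 3323 to 4500 in Pali_dKO and 1078 to 1909 in Pali_WT. The part of these markers in the result was not tested.

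At day 4 Eda2r fell in Pali_dKO against Pali_WT (log2 fold change -0.47, SE 0.11, adjusted p = 0.0279; background 1.08%), a call lost when any 1 of the 4 libraries was left out (highest adjusted p = 0.168). At day 8 limma called none of the 10 genes, with 3 at an unadjusted p under 0.05, a median of 0.075 and a background of 7.21% in either direction. Btg2 at day 8 gave 0.56 (95% interval 0.064 to 1.05) and Cdkn1a 0.34 (95% interval -0.13 to 0.82), and the Pali1_sKO value of the same day lay within the interval for Btg2 and above that for Cdkn1a. For none of the 10 genes did the Pali_dKO effect at day 8 differ from that at day 0 by limma's test of the difference, with 3 at an unadjusted p under 0.05 (background 1.12% in either direction). The effect on Eda2r changed from day 0 to day 4 by -1.12 on the log2 scale (adjusted p = 0.0015; background 0.376% lower), which held in every alternative and without any 1 library. Set directly against Pali1_sKO, Pali_dKO had higher Btg2 at day 0 (log2 fold change 0.96, SE 0.23, adjusted p = 0.0312; background 2.04%), a call kept only without Pali1_sKO replicate 2 among the 4 fits that left out 1 library. At day 4 limma called none (2 at an unadjusted p under 0.05; background 1.38%). At day 8 Eda2r was lower in Pali_dKO, at 822 and 814, against 1309 and 1137 in Pali1_sKO (log2 fold change -0.57, SE 0.11, adjusted p = 0.00809; background 0.439%), again kept only without Pali1_sKO replicate 2. For Phlda3, at 469 and 491 in Pali_dKO and 924 and 751 in Pali1_sKO, the adjusted p was 0.0651. For Cdkn1a the log2 fold change was -0.56 (95% interval, not adjusted over genes, -1.04 to -0.087). Neither Phlda3 nor Cdkn1a passed.

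The Aebp2 gene trap had lower levels of a few of these genes at day 8. At day 8, 3 of the 10 genes fell in Aebp2_Gt against C129_WT and none rose (background 10.6% lower), with a median of -0.50 for the 10 genes and -0.0091 for all genes. Cdkn1a averaged 903 ± 206 in Aebp2_Gt and 1696 ± 387 in C129_WT (log2 fold change -0.91, SE 0.23, adjusted p = 0.00774), and the call ended without Aebp2_Gt day 8 replicate 1 or C129_WT day 8 replicate 2 (highest adjusted p = 0.13). Aen was 421 and 339 in Aebp2_Gt and 549 and 574 in C129_WT (log2 fold change -0.57, SE 0.18, adjusted p = 0.0311), and that call ended without Aebp2_Gt day 8 replicate 2, C129_WT day 8 replicate 1 or C129_WT day 8 replicate 2 (highest adjusted p = 0.227). Eda2r was 1098 and 1172 in Aebp2_Gt and 1732 and 1844 in C129_WT (log2 fold change -0.65, SE 0.11, adjusted p = 0.000258), and this held without any 1 library. Ccng1 (-0.43, adjusted p = 0.0865) and Btg2 (-0.60, adjusted p = 0.0803) did not pass, although the groups overlap for neither. Of 14 pluripotency markers 12 rose in Aebp2_Gt at day 8 and none fell, with sums of 70366 to 77490 in Aebp2_Gt and 20058 to 27526 in C129_WT. Of 16 extraembryonic endoderm markers 5 fell, with sums of 9171 to 9849 in Aebp2_Gt and 18913 to 21671 in C129_WT. Of 17 fibroblast and mesenchyme markers 5 fell, with sums of 19035 to 19362 in Aebp2_Gt and 16820 to 24971 in C129_WT. Their part in the result was not tested.

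Eda2r was lower in the gene trap at the earlier days as well. At day 0 it was 941 and 848 in Aebp2_Gt and 1539 and 1727 in C129_WT (log2 fold change -0.87, SE 0.11, adjusted p = 5.28e-05), which held without any 1 library. At day 4 Eda2r was 874 and 929 in Aebp2_Gt and 1304 and 1246 in C129_WT (log2 fold change -0.50, SE 0.11, adjusted p = 0.00659), which was lost without Aebp2_Gt day 4 replicate 1 or C129_WT day 4 replicate 1 (highest adjusted p = 0.0761). Eda2r was the 1 call of day 4 (background 4.96%). The median log2 fold change of the 10 genes was 0.068 at day 4, with 7 above 0 and 3 below. At day 0 the median was -0.276, with 1 above 0 and 9 below. Trp53inp1 was the other call of day 0 (background 7.78%), at 6738 and 6356 in Aebp2_Gt and 10359 and 8205 in C129_WT (log2 fold change -0.49, SE 0.11, adjusted p = 0.00722), and it was lost without Aebp2_Gt day 0 replicate 2 or C129_WT day 0 replicate 1 (highest adjusted p = 0.152). Btg2 was the 1 of the 10 genes whose gene trap effect changed from day 4 to day 8, by -1.03 on the log2 scale (adjusted p = 0.0467; background 6.55%), a contrast chosen after the data were seen, and the call was lost in 4 of 8 fits that left out 1 library (highest adjusted p = 0.208).

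The 2 wild types differed in most of these genes at day 0 and at day 8, and in 1 at day 4. At day 0, 6 of the 10 genes were higher in C129_WT than in Pali_WT and none was lower (background 12%), with a median of 1.06 for the 10 genes and 0.048 for all genes. The log2 fold change was 1.71 for Btg2 (adjusted p = 4.96e-05), 1.64 for Phlda3 (adjusted p = 1.42e-05), 1.36 for Ccng1 (adjusted p = 1.97e-05), 1.34 for Trp53inp1 (adjusted p = 1.69e-07), 1.29 for Eda2r (adjusted p = 1.21e-07) and 0.84 for Mdm2 (adjusted p = 6.49e-05). Mdm2 averaged 3861 ± 527 in C129_WT and 2146 ± 163 in Pali_WT, and Eda2r 1633 ± 133 in C129_WT and 668 ± 76.1 in Pali_WT. Of 17 fibroblast and mesenchyme markers 6 were higher and 1 lower in C129_WT, with sums of 18076 to 19634 in C129_WT and 23192 to 23905 in Pali_WT. Of 14 trophoblast markers 6 were higher, with sums of 5685 to 6543 in C129_WT and 3273 to 3837 in Pali_WT. The part of these markers was not tested. Cdkn1a was 308 and 281 in C129_WT and 193 and 215 in Pali_WT and did not pass (log2 fold change 0.52, SE 0.23, adjusted p = 0.115).

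At day 8, 8 of the 10 genes were higher in C129_WT and none was lower (background 8.86%), with a median of 1.02 for the 10 genes and 0.023 for all genes. Cdkn1a averaged 1696 ± 387 in C129_WT and 574 ± 104 in Pali_WT (log2 fold change 1.55, SE 0.23, adjusted p = 0.000124). Btg2 averaged 2733 ± 365 in C129_WT and 860.0 ± 160.4 in Pali_WT (log2 fold change 1.67, SE 0.23, adjusted p = 8.96e-05). Ccng1 averaged 14744 ± 3235 in C129_WT and 5183 ± 448 in Pali_WT (log2 fold change 1.49, SE 0.17, adjusted p = 1.17e-05). The log2 fold change was 1.51 for Phlda3, 1.19 for Eda2r, 0.84 for Aen, 0.75 for Trp53inp1 and 0.66 for Mdm2, with adjusted p-values from 9.97e-07 to 0.00308. All calls of day 0 and day 8 held in every alternative run and without any 1 library. Of 14 pluripotency markers 12 were lower in C129_WT at day 8, with sums of 20058 to 27526 in C129_WT and 66340 to 79449 in Pali_WT. Of 16 extraembryonic endoderm markers 5 were higher, with sums of 18913 to 21671 in C129_WT and 5635 to 22181 in Pali_WT. The part of these markers in the result was not tested. At day 4, by contrast, no gene was higher in C129_WT and Btg2 was lower (log2 fold change -1.16, SE 0.23, adjusted p = 0.0024; background 7.57%), a call that ended without C129_WT day 4 replicate 1 (highest adjusted p = 0.0534).

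The difference between the wild types therefore changed with the day, and the change itself was tested in 2 contrasts chosen after the data were seen. From day 0 to day 4 the C129_WT minus Pali_WT difference became lower for 7 of the 10 genes (background 5.56% lower), with a change of -2.87 on the log2 scale for Btg2 (adjusted p = 9.79e-05), -1.96 for Phlda3 (adjusted p = 0.000607) and -1.46 for Ccng1 (adjusted p = 0.00134). From day 4 to day 8 it grew for 8 of the 10 (background 8.36% higher), by 2.83 for Btg2 (adjusted p = 2.77e-05), 2.20 for Cdkn1a (adjusted p = 0.000177) and 1.82 for Phlda3 (adjusted p = 0.000327). Over the second interval 10 of 14 pluripotency markers moved lower in C129_WT relative to Pali_WT. Over the same days 4 of 17 fibroblast and mesenchyme markers and 4 of 16 extraembryonic endoderm markers moved higher (background 8.36%). Of all genes called over this interval, 48.1% moved higher and the rest lower. The weakest of these calls were Cdkn1a from day 0 to day 4 (-1.18, adjusted p = 0.0285), lost in 6 of 8 fits without 1 library, and Aen from day 4 to day 8 (0.75, adjusted p = 0.0499), lost in 7 of 8. The other 13 held in all of these fits.

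**Figure D4:**
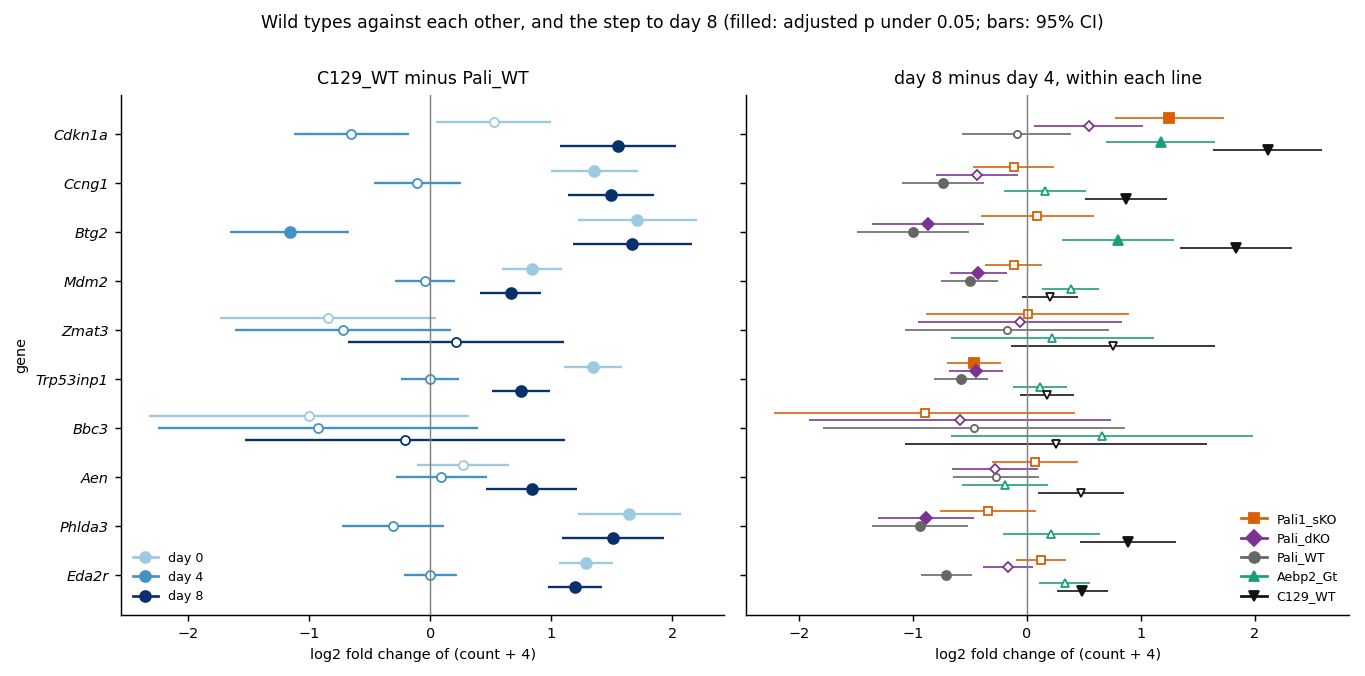
Log2 fold changes of the 10 genes with 95% intervals from limma, for C129_WT against Pali_WT at each day and for day 8 against day 4 in each line, with filled points where the adjusted p is under 0.05. Between day 4 and day 8 the points of Pali_WT lie left of 0 for all 10 genes and those of C129_WT right of 0.

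Other p53 targets did not move as one group. Of 45 further targets listed, 44 were in the table and 43 were tested. In Pali1_sKO against Pali_WT at day 8, 7 of the 43 rose and 6 fell, where 7.07% of all genes rose and 6.52% fell, and their median log2 fold change was 0.22, against 0.036 over all genes. Their median was 0.21 in Pali_dKO at day 0, -0.015 in Aebp2_Gt at day 8 and 0.29 in C129_WT against Pali_WT at day 8. Plk2, a kinase of the stress response, averaged 1021 ± 23.0 in Pali1_sKO and 471 ± 33.2 in Pali_WT (log2 fold change 1.11, SE 0.20, adjusted p = 0.00141), and Zfp365 (1.06) and the repair endonuclease gene Ercc5 (0.65) also rose. Pmaip1, the gene of the BH3-only protein NOXA, was opposite to them, at 296 ± 17.9 in Pali1_sKO and 1688 ± 499.8 in Pali_WT (log2 fold change -2.46, SE 0.29, adjusted p = 4.31e-05). Pml, the organiser of nuclear bodies, averaged 1181 ± 28.3 in Pali1_sKO and 3114 ± 148 in Pali_WT (log2 fold change -1.39, SE 0.14, adjusted p = 1.12e-05). At day 4, when none of the 10 genes was called, 5 of the 43 fell in Pali1_sKO and none rose, among them Pmaip1 (582 ± 139 in Pali1_sKO and 2562 ± 395 in Pali_WT; log2 fold change -2.14, SE 0.29, adjusted p = 0.000336) and the growth arrest gene Gadd45a (log2 fold change -1.50, SE 0.19, adjusted p = 0.000195). At day 0, 2 rose and 2 fell. Over all genes, 1.6% fell at day 4, and 3.04% rose and 1.75% fell at day 0.

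In Pali_dKO against Pali_WT, 3 of the 43 rose and 1 fell at day 0, none rose and 2 fell at day 4, and 1 rose and 3 fell at day 8. The backgrounds are 2.95% higher and 0.719% lower at day 0, 1.08% lower at day 4, and 4.13% higher and 3.08% lower at day 8. Plk2 rose at day 0, to 832 ± 18.6 in Pali_dKO, against 304 ± 27.4 in Pali_WT (log2 fold change 1.44, SE 0.20, adjusted p = 0.000509), and again at day 8 (0.84, adjusted p = 0.0192). Pmaip1 separated the 2 Pali mutants at day 8, at 1584 ± 396 in Pali_dKO and 296 ± 17.9 in Pali1_sKO (log2 fold change 2.38, SE 0.29, adjusted p = 0.00026), as did Gadd45a (1.37, adjusted p = 0.000639). In Aebp2_Gt against C129_WT, 3 rose and 6 fell at day 0, 5 rose and 1 fell at day 4, and 6 rose and 7 fell at day 8. Over all genes, 5.23% rose and 7.78% fell at day 0, 4.05% rose and 4.96% fell at day 4, and 9.59% rose and 10.6% fell at day 8. The death receptor gene Fas fell at day 0 (log2 fold change -1.90, SE 0.47, adjusted p = 0.0117), Pmaip1 rose at day 4 (1.56, adjusted p = 0.00302) and the tetraspanin gene Cd82 fell at day 8 (-2.06, adjusted p = 0.00044). Between the wild types, 13 were higher in C129_WT and 4 lower at day 0, 4 higher and 7 lower at day 4, and 15 higher and 6 lower at day 8. Over all genes, 12% were higher and 9.06% lower at day 0, 8.35% higher and 7.57% lower at day 4, and 8.86% higher and 8.49% lower at day 8. Plk2 was 1405 ± 278 in C129_WT and 304 ± 27.4 in Pali_WT at day 0 (log2 fold change 2.18, SE 0.20, adjusted p = 6.7e-07). Pmaip1 was 133 ± 13.1 in C129_WT and 1688 ± 499.8 in Pali_WT at day 8 (log2 fold change -3.60, SE 0.29, adjusted p = 4.06e-07). The lowest Pmaip1 and the highest Cdkn1a among the day 8 groups were thus both in C129_WT.

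The p21 protein acts on many cell cycle genes through the DREAM repressor complex, and 25 such genes were listed and tested. Between day 0 and day 8, 15 fell and 2 rose in Pali1_sKO, 14 fell and 2 rose in Pali_dKO, 6 fell and none rose in Pali_WT, 9 fell and 1 rose in Aebp2_Gt, and 11 fell and 2 rose in C129_WT. Over all genes, the share that fell was 20.1% in Pali1_sKO, 14.2% in Pali_dKO, 11.7% in Pali_WT, 14.9% in Aebp2_Gt and 22.4% in C129_WT. At day 8, 5 fell in Pali1_sKO against Pali_WT and none rose, 2 fell in Pali_dKO and none rose, and 6 rose and 1 fell in Aebp2_Gt against C129_WT, beside the day 8 backgrounds given above. Their median log2 fold change at day 8 was -0.17 in Pali1_sKO, -0.11 in Pali_dKO and 0.18 in Aebp2_Gt, against 0.036, 0.035 and -0.0091 over all genes. Between the wild types at day 8, 2 were higher in C129_WT and 3 lower (backgrounds 8.86% and 8.49%). The median there was -0.048, against 0.023 over all genes. From day 4 to day 8 in C129_WT the median change of these 25 genes was 0.027, against 0.029 over all genes. Mybl2, a transcription factor of the dividing cell that is itself a DREAM target, averaged 3154 ± 156 in Pali1_sKO and 9068 ± 637 in Pali_WT at day 8 (log2 fold change -1.52, SE 0.18, adjusted p = 4.5e-05). Its log2 fold change at day 8 was -1.14 in Pali_dKO (adjusted p = 0.00148), 1.15 in Aebp2_Gt (adjusted p = 0.000224) and -1.77 in C129_WT against Pali_WT (adjusted p = 4.08e-06). The other members called at day 8 in Pali1_sKO moved less, such as the checkpoint kinase gene Bub1b (-0.30, adjusted p = 0.0232).

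The transcript of p53 itself did not rise with its targets. Trp53 ran from 4293 to 5370 at day 0, from 2728 to 4914 at day 4 and from 2452 to 3528 at day 8. It fell from day 0 to day 8 in all 5 lines, with log2 fold changes of -0.81 in Pali1_sKO (adjusted p = 0.000116), -0.74 in Pali_dKO (adjusted p = 0.000466), -0.43 in Pali_WT (adjusted p = 0.0263), -0.54 in Aebp2_Gt (adjusted p = 0.00504) and -0.79 in C129_WT (adjusted p = 0.000113). In Pali1_sKO against Pali_WT at day 8 Trp53 gave -0.30 (adjusted p = 0.16). Of 23 regulators of p53 tested, p53 included, none was called in Pali_dKO at any day or in Pali1_sKO at day 0 or day 4. In Pali1_sKO 2 fell at day 8 (background 6.52%). In Aebp2_Gt 2 rose at day 0 (background 5.23%), 4 fell at day 4 (background 4.96%) and 1 rose at day 8 (background 9.59%). Between the wild types 3 were higher in C129_WT and 3 lower at day 0 (backgrounds 12% and 9.06%). At day 4, 5 were higher (background 8.35%), and at day 8, 1 was lower (background 8.49%). Mdm4, the partner of Mdm2 that inhibits p53, was among those higher at day 0, at 5682 ± 237 in C129_WT and 2599.6 ± 430.4 in Pali_WT (log2 fold change 1.14, SE 0.24, adjusted p = 0.00263). Cdkn2a, whose ARF product inhibits Mdm2, stayed between 1.35 and 50.0 over all libraries. Transcript levels say nothing of the amount or activity of the p53 protein.

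Over the 15 group means, the 10 genes shared one profile to different degrees. The correlation of each gene with the mean of the other 9 was 0.953 for Btg2, 0.873 for Ccng1, 0.863 for Phlda3, 0.820 for Cdkn1a, 0.757 for Trp53inp1, 0.709 for Aen, 0.601 for Zmat3, 0.553 for Eda2r, 0.513 for Bbc3 and 0.402 for Mdm2. The closest pair was Ccng1 and Phlda3, at 0.965, and the farthest was Mdm2 and Zmat3, at -0.235. These are descriptions over groups that share lines and libraries. The mean profile of the 10 genes was highest in C129_WT at day 8 (0.809) and lowest in Pali_WT at day 0 (-0.829), in units of log2 around each gene's own mean. Among the 10635 other genes tested with a mean of at least 50, the group means most like this profile were those of Map3k20 (0.973), Apaf1 (0.952), Ercc5 (0.948) and Tap1 (0.944), of which Apaf1 and Ercc5 are also on the list of further p53 targets. Over that list the correlations ran from -0.879 for Epha2 to 0.952 for Apaf1. Those most opposite were Nit2 (-0.935), Dus3l (-0.925), Trappc2l (-0.918), Tnk2 (-0.913) and Zfp953 (-0.913), and Trp53 itself correlated at -0.754.

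**Figure D5:**
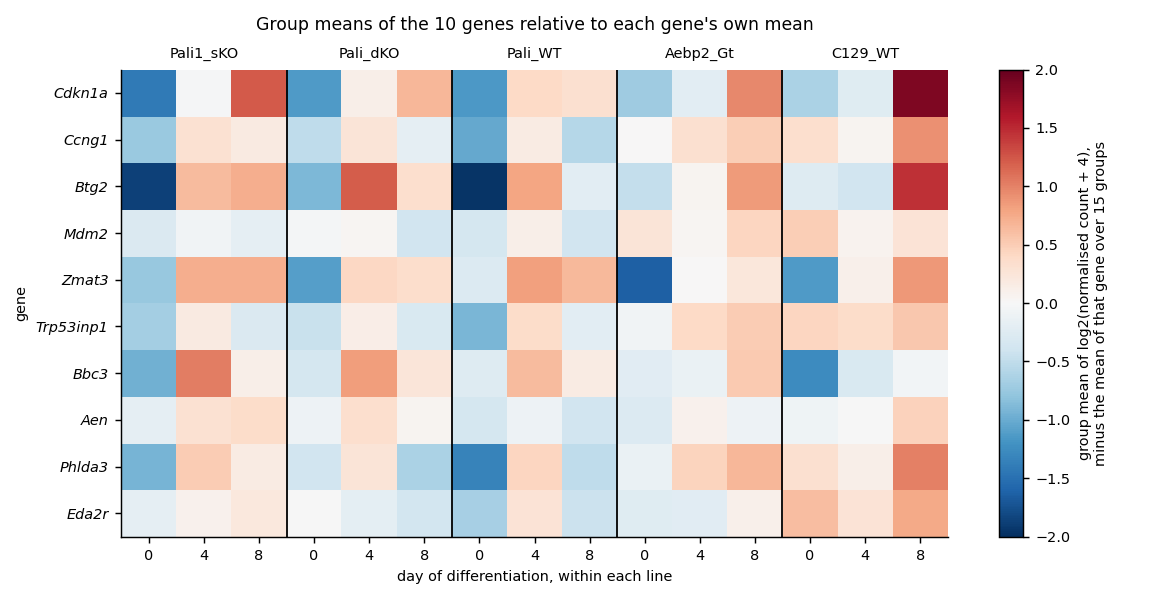
Group means of the 10 genes (rows) in the 15 groups of line and day (columns), with colour for the mean of log2(normalised count + 4) minus that gene's own mean over the groups. C129_WT at day 8 is the highest group for 7 genes, and Pali_WT at day 0 is the lowest for Ccng1, Btg2, Trp53inp1, Phlda3 and Eda2r.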

How the data were processed

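Ribosome-depleted, strand-marked total RNA of 30 libraries was sequenced, per the labels. The deposited data are a single table of normalised counts, a signal with fractional values. Named in the submitters' processing notes are DESeq2, kallisto 0.43.1, HISAT2 2.0.5 and mm10, but not the role of each or the annotation. If 1 read is taken as the smallest step, 82.3 to 86.1% of values under 8 steps came out whole (within 0.001 of a step), so whole reads were not recovered and no count model was run.

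The values were used as deposited. Genes at 10 or more in at least 2 libraries were tested (15712) with limma 3.58.1 in R 4.3.3 on log2(value + 4), with 1 mean for each of the 15 groups, trend and robust variance, 15 residual degrees of freedom and Benjamini-Hochberg adjustment within each contrast at 0.05. There were 30 comparisons of 2 groups and 11 of differences between days, 5 of which were chosen after the data were seen. Tested on simulated data for Pali_dKO against Pali_WT at day 0 (15712 genes), the fit called 71 of 100 genes changed 2-fold, 80 of 100 changed 4-fold, and 9 unchanged genes.

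The 10 genes and all lists were chosen with earlier results of these data known. The genes named from a list are up to 3 called per direction and comparison with the lowest adjusted p, with Trp53, Mdm4, Cdkn2a, Lcor, Lcorl and Aebp2 named whatever their call, and the 5 genes most like and 5 most unlike the mean profile, of which 1 is not reported here. Gene positions are from GENCODE M21 on GRCm38. Replicate numbers did not pair the libraries. Figures were drawn with Python 3.11.15 and matplotlib 3.10.9.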

Additional observations from a re-analysis of the deposited data

Results flagged for a closer look

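The following differences stood out because the difference between 2 groups itself changed with the day, by a test of that change in limma. From day 0 to day 4 the C129_WT minus Pali_WT difference changed by -2.87 on the log2 scale for Btg2, -1.96 for Phlda3, -1.46 for Ccng1, -1.34 for Trp53inp1, -1.29 for Eda2r, -1.18 for Cdkn1a and -0.89 for Mdm2. From day 4 to day 8 it changed by 2.83 for Btg2, 2.20 for Cdkn1a, 1.82 for Phlda3, 1.60 for Ccng1, 1.19 for Eda2r, 0.75 for Trp53inp1, 0.75 for Aen and 0.71 for Mdm2. The Pali1_sKO effect against Pali_WT changed by 1.17 from day 0 to day 8 for Cdkn1a, and by 0.83 from day 4 to day 8 for Eda2r (adjusted p = 0.0172; background 0.726% higher), the second being lost without Pali1_sKO day 4 replicate 2 or Pali_WT day 4 replicate 2 (highest adjusted p = 0.0583). The Pali_dKO effect on Eda2r changed by -1.12 from day 0 to day 4, and the Aebp2_Gt effect on Btg2 by -1.03 from day 4 to day 8. As given above, several other calls in this list did not hold throughout. These are Cdkn1a in Pali1_sKO, Cdkn1a between the wild types from day 0 to day 4, Aen, and Btg2 in Aebp2_Gt. Among the processing alternatives, the Aen call was lost in 6 of 8 and the Aebp2_Gt call of Btg2 in 4 of 9.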

How the results depend on the processing

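Each comparison of 2 groups was repeated under up to 9 alternatives: a pseudocount of 1 or 16, no filter, a filter at a mean of 50, upper-quartile and trimmed-mean rescaling, libraries of the same parent only, a replicate block, and limma without trend or robust variance. C129_WT against Pali_WT had no fit with libraries of the same parent, and Bbc3 none at a mean of 50. Of 110 calls of single genes in comparisons of 2 groups, 99 kept their side of the threshold in every alternative run, and 56 kept it in every fit that left out 1 library, and none turned its direction. Of 19 calls of differences between days, 16 held in all alternatives and 14 in every fit without 1 library. The cause of the changes was not tested. Counts of the 10 genes called that moved were these. With libraries of the same parent only, Pali_dKO against Pali_WT at day 4 had 0 (1 as reported), the Pali1_sKO effect between day 0 and day 8 had 0 (1), Aebp2_Gt at day 8 against day 4 had 1 (2) and the Aebp2_Gt effect between day 4 and day 8 had 0 (1). At a mean of 50, C129_WT against Pali_WT at day 4 had 2 (1), Aebp2_Gt at day 8 against day 4 had 4 (2), the Pali1_sKO effect had 1 (0) between day 0 and day 4 and 2 (1) between day 4 and day 8, the Pali_dKO effect between day 0 and day 4 had 2 (1), and the Aebp2_Gt effect between day 4 and day 8 had 3 (1). With no filter, with upper-quartile rescaling and without trend or robust variance, Aebp2_Gt at day 8 against day 4 had 1 and its effect between day 4 and day 8 had 0. A pseudocount of 16 gave 2 for the Pali1_sKO effect between day 4 and day 8. Counts over all genes moved most with libraries of the same parent only: Aebp2_Gt against C129_WT had 979 at day 0 (2044 as reported) and 395 at day 4 (1416), Aebp2_Gt at day 8 against day 4 had 498 (1257), and the Aebp2_Gt effect had 22 (162) between day 0 and day 4, 1165 (2399) between day 0 and day 8 and 1108 (2148) between day 4 and day 8. A pseudocount of 16 gave 284 for the Aebp2_Gt effect between day 0 and day 4, 263 (157) for the Pali1_sKO effect and 31 (10) for the Pali_dKO effect between day 4 and day 8. A pseudocount of 1 gave 75 for the Pali1_sKO effect between day 4 and day 8. The Pali_dKO effect between day 4 and day 8 had 21 with no filter and 0 at a mean of 50. Of the genes called in the Pali1_sKO effect between day 4 and day 8, 72.6% were higher as reported and 61.6% with upper-quartile rescaling.

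Replicate numbers are shared by the groups, but same-numbered libraries did not deviate together (correlation -0.062 to 0.109 over 30 comparisons, 1 over 0.1). With the replicate block, the Pali1_sKO effect between day 0 and day 4 had 1 gene called (0 without it) and the Aebp2_Gt effect between day 4 and day 8 had 2 (1). Over all genes it called 120 (67) for the Pali1_sKO effect between day 0 and day 4, 239 (157) between day 4 and day 8 and 245 (162) for the Aebp2_Gt effect between day 0 and day 4.

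Leaving out each library in turn moved other counts, given beside the count as reported in parentheses. With 1 library left out, 0 were called throughout for Pali_dKO against Pali_WT at day 4 (1). 0 to 1 were called for Pali1_sKO against Pali_WT at day 0 (1), Aebp2_Gt against C129_WT at day 4 (1), Pali_dKO against Pali1_sKO at day 0 (1), Pali_dKO against Pali1_sKO at day 8 (1), C129_WT against Pali_WT at day 4 (1), the Pali1_sKO effect between day 0 and day 4 (0), the Pali1_sKO effect between day 0 and day 8 (1), the Pali_dKO effect between day 0 and day 8 (0), the Aebp2_Gt effect between day 0 and day 4 (0), the Aebp2_Gt effect between day 0 and day 8 (0) and the Pali1_sKO effect between day 4 and day 8 (1). 0 to 2 were called for Aebp2_Gt at day 8 against day 4 (2) and C129_WT at day 4 against day 0 (3). 0 to 3 were called for the Aebp2_Gt effect between day 4 and day 8 (1). 0 to 4 were called for Pali_dKO at day 8 against day 4 (4). 1 to 2 were called for Pali_dKO against Pali_WT at day 0 (4), Aebp2_Gt against C129_WT at day 0 (2), Pali1_sKO at day 8 against day 4 (2) and the Pali_dKO effect between day 0 and day 4 (1). 1 to 3 were called for Aebp2_Gt against C129_WT at day 8 (3). 1 to 6 were called for Pali_WT at day 8 against day 4 (6). 2 to 5 were called for Pali1_sKO against Pali_WT at day 8 (6). 3 to 4 were called for Pali_dKO at day 8 against day 0 (5). 3 to 6 were called for C129_WT at day 8 against day 0 (6). 4 to 6 were called for Aebp2_Gt at day 8 against day 0 (7). 5 to 7 were called for Pali1_sKO at day 8 against day 0 (8). The 30 libraries give 2 per group, which limits the precision of every comparison, and values near 10, such as those of Bbc3, rest on few reads.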
